A study of Mus musculus with 9 samples.

Results

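Kinesins and kinesin light chains were followed through the malignant progression of mouse ovarian surface epithelial (MOSE) cells. Members were taken by gene name, as the probe sets whose single gene symbol in the platform annotation begins with Kif and a number, or is Kifc1, Kifc2, Kifc3, Klc1, Klc2, Klc3 or Klc4. The rule found 109 probe sets of 43 genes, out of 45101 probe sets and 18193 genes on the array. Total RNA of 9 cultures was hybridised to Affymetrix arrays of the mouse genome, with 3 arrays a stage. MOSE-E (early, non-malignant) arrays held passages 13, 14 and 15, and MOSE-I (intermediate) arrays passages 63, 71 and 73. MOSE-L (late, malignant and invasive) arrays held passages 136, 142 and 143. The paper describes MOSE-I cells as able to form tumours in mice, though less invasive than MOSE-L cells. The cells came from C57BL6 mice, transformed spontaneously on continued passage, and all stages grew in the same serum- and insulin-supplemented medium. The cultures are heterogeneous and the stages are passages of a single cell series, so stage, passage number and time in culture cannot be told apart, and p-values measure only the spread between these arrays. Values are linear MAS 5.0 signals, which have no unit, with each array scaled by the authors to a trimmed mean of 500.

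Kinesins are motors that use ATP to walk along microtubules or to take them apart at their ends. One set works in dividing cells, where it builds the spindle, moves and aligns chromosomes and organises the midzone at which the daughter cells separate. Another set carries vesicles, organelles, mRNA and protein complexes through the cytoplasm, with light chains and adaptors that attach the cargo. The mitotic motors are known to be made mostly in G2 phase and mitosis, while many cargo motors are made throughout the cell cycle. In a culture, fewer dividing cells and less RNA of a motor per cell cannot be told apart.

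Signals were analysed as log2 of the signal plus 50, a scale that understates the fold of dim genes. Only probe sets whose brightest array exceeded 500, 13845 in all, were fitted together in limma, and each of 7952 genes was represented by its probe set with the highest mean signal. A gene was called at a Benjamini-Hochberg adjusted p of at most 0.05, over all tested probe sets, and a log2 change of at least 1 in either direction. The 3 comparisons between stages share their arrays and are not independent of each other. All 7 ovarian surface epithelium markers (Krt7, Krt8, Krt18, Krt19, Msln, Upk3b and Wt1) exceeded 500 on at least 1 array. Their summed signals were 57814 to 62206 per MOSE-E array, 49185 to 62154 per MOSE-I array and 42053 to 60134 per MOSE-L array. Between MOSE-E and MOSE-L 3 of them (Krt7, Krt8 and Krt19) fell and 0 were called higher. Wt1 (0.94) and Upk3b (0.59) stood above MOSE-E without overlap, not called. Krt7 and Msln were called lower in MOSE-I against MOSE-E. In MOSE-L against MOSE-I, Msln and Wt1 were called higher and Krt8 lower. None of 3 leukocyte markers (Cd3e, Cd68, Ptprc; highest signal 362) or 3 endothelial markers (Cdh5, Kdr, Pecam1; 239) exceeded 500. Among 3 germ cell markers, Ddx4 read 1363 to 6515 in MOSE-E and at most 127 in the later stages, and among 3 granulosa and theca markers 1 probe set of Star read 1402 on MOSE-L replicate 3 and at most 308 elsewhere. MOSE-L replicate 3 correlated least with its own stage (Pearson r of 0.889 and 0.907 over probe sets, against 0.934 for the other MOSE-L pair) and its Actb signal was the most weighted to the 3' end, with a 3' to 5' ratio of 1.83 against 1.12 to 1.45 on the other 8 arrays. Its Gapdh ratio, 0.727, was the lowest of the 9 arrays (0.735 to 0.810 on the others). Changes of the mitotic genes by their representative probe sets, and of the proliferation and motor-associated lists, are given with and without this array.

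Of the 43 genes, 24 had a probe set over 500 on some array and were tested, through 44 probe sets. The mitotic class held 13 genes, of which 10 were tested, and the cargo transport class 18 genes, of which 11 were tested. The 19 genes under the filter were Kif14, Kif15 and Kif2b of the mitotic class, Kif5a, Kif5c, Klc3, Kif17, Kif1a, Kif13b and Kifc2 of the cargo class, all 5 genes assigned to the cilium and centriole (Kif6, Kif7, Kif9, Kif24 and Kif27), and Kif12, Kif21b, Kif26a and Kif28. Their highest signals ran from 12.1 for Kif28 to 411 for Kif13b, with a median of 151. Among them are kinesins best known from neurons, such as Kif5a, Kif5c and Kif1a, and the hedgehog pathway kinesin Kif7. Because a gene passed on the strength of its highest array, the tested genes do not stand for the whole family. No probe set named Klc2 or Kif19a alone, and neither was analysed here.

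A short element that many cell cycle genes carry stood in most mitotic start-site windows and in no cargo transport window. The cell cycle genes homology region, TTTGAA, is known as the site through which the DREAM and MuvB complexes hold genes of the G2/M phases silent in resting cells, often together with CCAAT boxes upstream that bind NF-Y. RefSeq windows of 300 bases on GRCm38.p6, from 250 bases before to 50 after a start, were given for 35 of the 43 genes. Of 32851 windows only the first listed for each gene was used, so further starts of a gene were not searched. The windows used were searched on both strands for TTTGAA and for CCAAT, 2 elements that do not overlap each other. TTTGAA stood in 10 of 12 mitotic windows (83.3%), in 0 of 13 cargo transport windows and in 18.1% of the windows of all 27025 genes. CCAAT stood in 8 of 12 mitotic windows (66.7%), 5 of 13 cargo transport windows (38.5%) and 37.9% of all, and both elements together in 7 mitotic, 0 cargo transport and 7.12% of all windows. The motifs were chosen for their known place in cell cycle genes, and a match describes letters, not binding. The mitotic windows without TTTGAA were those of Kif18a and Kif2b. Windows were not given for Kif13b, Kif20a, Kif21b, Kif28, Kif5a, Kif5b, Kifc2 and Kifc3. The sequences below run from 120 bases before to 30 bases after the start, 5′ to 3′, with both elements in capitals, where TTCAAA and ATTGG are TTTGAA and CCAAT on the opposite strand. The first 5 are mitotic genes with both elements, the sixth is a mitotic gene with neither, Klc1 and Klc4 are the tested light chains of the cargo class, and Kif26b is the member outside the mitotic class that fell most.
Kif11, chr19:37376262-37376411, plus strand: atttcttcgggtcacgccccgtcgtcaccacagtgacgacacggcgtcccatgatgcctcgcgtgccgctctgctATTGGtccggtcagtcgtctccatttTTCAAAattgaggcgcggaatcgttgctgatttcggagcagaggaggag
Kif22, chr7:127042391-127042540, minus strand: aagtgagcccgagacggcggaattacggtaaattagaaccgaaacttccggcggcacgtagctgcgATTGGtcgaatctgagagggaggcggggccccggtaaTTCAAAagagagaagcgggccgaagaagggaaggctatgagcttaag
Kif18b, chr11:102925095-102925244, minus strand: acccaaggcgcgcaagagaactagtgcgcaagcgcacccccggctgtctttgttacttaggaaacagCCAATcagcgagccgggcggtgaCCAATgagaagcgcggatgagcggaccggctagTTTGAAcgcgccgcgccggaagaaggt
Kif23, chr9:61946770-61946919, minus strand: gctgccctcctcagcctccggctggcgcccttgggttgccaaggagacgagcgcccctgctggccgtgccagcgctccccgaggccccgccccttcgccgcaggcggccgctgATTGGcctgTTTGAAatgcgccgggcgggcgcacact
Kif4, chrX:100625945-100626094, plus strand: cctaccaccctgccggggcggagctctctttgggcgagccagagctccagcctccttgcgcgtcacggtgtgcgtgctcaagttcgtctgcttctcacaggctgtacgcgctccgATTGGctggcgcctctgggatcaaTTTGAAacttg
Kif18a, chr2:109280618-109280767, plus strand: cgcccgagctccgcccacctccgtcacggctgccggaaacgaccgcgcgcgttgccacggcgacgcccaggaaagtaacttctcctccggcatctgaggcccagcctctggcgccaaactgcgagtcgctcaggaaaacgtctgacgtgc
Klc1, chr12:111758748-111758897, plus strand: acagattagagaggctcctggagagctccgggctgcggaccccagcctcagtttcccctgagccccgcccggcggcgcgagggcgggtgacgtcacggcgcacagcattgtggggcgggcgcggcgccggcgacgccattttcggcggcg
Klc4, chr17:46646051-46646200, minus strand: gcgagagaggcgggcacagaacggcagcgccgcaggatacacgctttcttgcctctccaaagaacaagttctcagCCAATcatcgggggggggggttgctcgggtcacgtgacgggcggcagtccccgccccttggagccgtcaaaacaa
Kif26b, chr1:178529005-178529154, plus strand: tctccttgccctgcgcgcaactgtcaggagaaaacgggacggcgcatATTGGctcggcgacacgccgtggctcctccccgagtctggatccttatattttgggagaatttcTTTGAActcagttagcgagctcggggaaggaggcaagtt
In Kif11 the 2 elements lie 21 bases apart and in Kif23 only 4, while in Kif22 the nearest pair lies 13 bases apart in the longer window.

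Mitotic kinesins stood lower in the late than in the early cells. All 10 tested genes had negative log2 changes, from -0.80 for Kifc1 to -2.03 for Kif2c, with a median of -1.49 against 0.03 over all tested genes. Kif2c, Kif23, Kif18a and Kif4 fell, 4 of 10, where 7.49% of all tested genes were called lower in this comparison. In 8 of the 10, every MOSE-L signal lay below every MOSE-E signal, against 21.7% of all genes. The spread among the 3 MOSE-L arrays was wide, and Kif20a and Kif20b missed the threshold with changes of -1.97 and -1.58 (limma adjusted p = 0.0562 and 0.0713). The count was 2 of 10 without MOSE-E replicate 2 or without MOSE-E replicate 3, and 8 of 10 without MOSE-L replicate 1 or without MOSE-L replicate 2.

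The spindle assembly motors push spindle poles apart or draw them together. Kif11, also called Eg5, is the tetrameric motor that slides antiparallel microtubules to separate the poles. It gave signals of 1206, 1558 and 1380 in MOSE-E, 1479.6, 1748 and 1415 in MOSE-I, and 914, 905 and 99.8 in MOSE-L. All MOSE-L arrays lay below all MOSE-E arrays, with the third far under the others. The change was -1.46 ± 0.57 (SE, limma adjusted p = 0.0783), and the other 2 tested Kif11 probe sets gave -1.16 and -1.52, none of them called. Without MOSE-L replicate 3 the change was -0.57. Kifc1, a minus-end-directed motor that gathers microtubule ends at the poles, read 416, 715 and 511 in MOSE-E and 309.9, 627 and 106 in MOSE-L. Its groups overlapped, and the change was -0.80 ± 0.43 (limma adjusted p = 0.191), and -0.24 without MOSE-L replicate 3. The Kifc1 probe set is of a type that can also read near-identical transcripts, so this level is uncertain. Kif15, a partner of Kif11 in keeping the poles apart, stayed at or under 151 and was not tested.

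Motors of chromosomes and kinetochores held 3 of the 4 called mitotic genes. Kif2c (MCAK), which takes apart microtubule ends at kinetochores and so frees faulty attachments, read 2238, 2541 and 2387 in MOSE-E, 1789.9, 1790.2 and 1647 in MOSE-I, and 765, 1122 and 170.3 in MOSE-L. Each stage lay wholly below the one before. Its mean was 2388 ± 152 in MOSE-E and 686 ± 481 in MOSE-L (SD, n = 3 each), a 3.48-fold difference and a log2 change of -2.03 ± 0.47 (limma adjusted p = 0.0109). This Kif2c probe set is of the type that can cross-hybridise. A second Kif2c probe set was called at -1.52, and the third read -0.97 with an adjusted p of 0.068 in limma. Kif18a, a motor that gathers at the plus ends of kinetochore microtubules and damps chromosome movements, read 898, 893 and 897 in MOSE-E, 666, 931 and 724 in MOSE-I, and 335, 497 and 118 in MOSE-L. MOSE-E and MOSE-I overlapped, and every MOSE-L array was below both. The MOSE-L change from MOSE-E was -1.53 ± 0.35 (limma adjusted p = 0.0109). Kif4, a chromokinesin that works on chromosome arms and later in the midzone, read 843, 1179 and 985 in MOSE-E, 571, 852 and 756 in MOSE-I, and 502, 685 and 247 in MOSE-L. MOSE-L lay below MOSE-E without overlap but overlapped MOSE-I, and the change from MOSE-E was -1.08 ± 0.30 (limma adjusted p = 0.0255). Without MOSE-L replicate 3 the Kif4 change was -0.71 and not called, and it was also not called without MOSE-E replicate 2 or 3.

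The other chromosome motors showed how much the probe set matters. Kif22 (Kid), which pushes chromosome arms away from the poles, was represented by a probe set of the same cross-hybridising type, with signals of 5520.4, 7033 and 5726 in MOSE-E, 5573, 5417 and 5796 in MOSE-I, and 4655, 4207 and 1133 in MOSE-L. MOSE-L was below MOSE-E on every array, but the change of -1.09 ± 0.42 was not called (limma adjusted p = 0.0788) and was -0.45 without MOSE-L replicate 3. The other 2 Kif22 probe sets were both called lower, at -1.56 and -1.68. On one of these the MOSE-E arrays read 992, 900.0 and 854 and the MOSE-L arrays 419.8, 573 and 68.7. Kif18b, which acts at the tips of astral microtubules, read 669, 757 and 719.9 in MOSE-E, 806, 809.9 and 896 in MOSE-I, and 441, 325 and 314 in MOSE-L. It was the mitotic kinesin in which MOSE-L replicate 3 stood closest to its group, and MOSE-I lay above MOSE-E on all arrays. Its change between MOSE-L and MOSE-E was -0.91 ± 0.18, under the fold threshold at an adjusted p of 0.00493 (limma) and -0.83 without MOSE-L replicate 3, and between MOSE-L and MOSE-I it fell by 1.13 on the log2 scale.

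Among cytokinesis motors, Kif23 fell and Kif20a held the lowest single array relative to its group. Kif23 (MKLP1), which with Racgap1 forms the centralspindlin complex of the midzone, read 2322, 3173 and 2885 in MOSE-E, 2477, 2437 and 2213 in MOSE-I, and 1047, 1433 and 179 in MOSE-L. MOSE-L lay below both earlier stages, and its mean of 886 ± 642 against 2794 ± 433 (SD, n = 3 each) gave a change of -1.97 ± 0.53 (limma adjusted p = 0.0217). The second Kif23 probe set was called as well, at -1.85. Leaving out MOSE-E replicate 2 or MOSE-E replicate 3 ended the Kif23 call. Kif20a (MKLP2), which brings the chromosomal passenger complex to the midzone, read 2164, 2894 and 2538 in MOSE-E, 2629, 3260.5 and 3359 in MOSE-I, and 1109.6, 1628 and 95.6 in MOSE-L. The third MOSE-L array held 3.78% of the MOSE-E mean and the mean of the other 2 held 54.1%. Without the third, the Kif20a change between MOSE-L and MOSE-E was -0.88, and that of Kif20b -0.70. Kif20b (MPP1), needed for the last steps of division, read 1506, 1956 and 1859 in MOSE-E and 689, 1633 and 131 in MOSE-L. Here the second MOSE-L array reached the MOSE-E range, so its groups overlapped. Kif14, another midbody motor, stayed at or under 53.0.

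**Figure D1:**
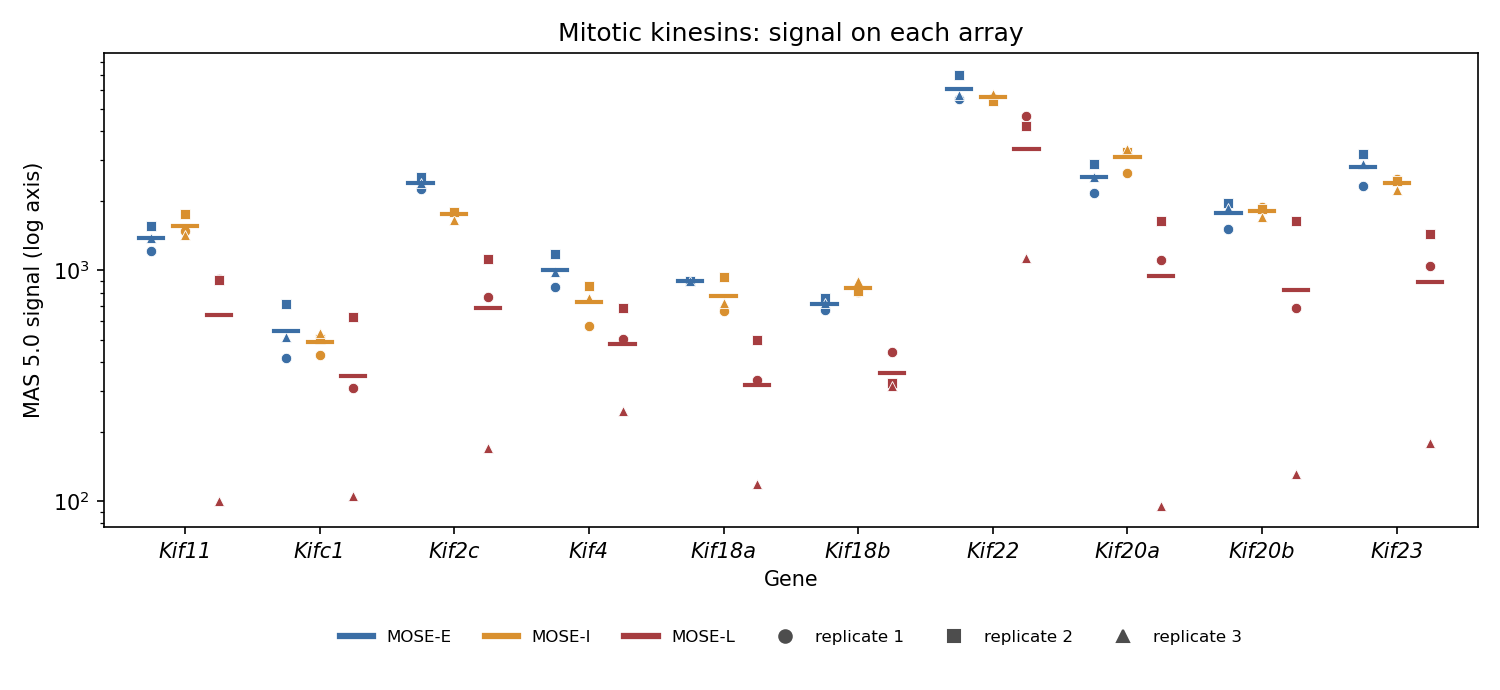
MAS 5.0 signal (log axis) of the 10 tested mitotic kinesins on each of the 9 arrays, with colour for the stage, marker shape for the replicate and a bar for the mean of 3 arrays. MOSE-L replicate 3 (red triangles) is the lowest of the 9 arrays for all 10 genes, for Kif20a at 95.6.

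MOSE-L replicate 3 stood farthest from the early arrays. It was the lowest of all 9 arrays in 10 of 10 mitotic kinesins. Its median log2 difference from the mean of the other MOSE-L arrays was -2.03, with 9 of 10 genes at -1 or less, while 0 of 11 cargo transport genes and 4.93% of all genes reached -1. The ratio of the other arrays' mean to this array ran from 1.22 for Kif18b to 14.3 for Kif20a. The remaining MOSE-L arrays were still low: both lay below all MOSE-E arrays in 8 of 10 mitotic genes, against 25.6% of all genes. With that array left out, all 10 changes between MOSE-L and MOSE-E stayed negative with a median of -0.77, and Kif2c (-1.32), Kif23 (-1.15) and Kif18a (-1.04) were called, 3 of 10 against 6.14% of all genes.

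Proliferation markers moved with the mitotic kinesins on the MOSE-L arrays. On the MOSE-I arrays their median differences from the MOSE-E mean were 0.34, 0.32 and 0.38. Those of the mitotic kinesins were -0.14, -0.02 and -0.06 there. The median difference of the 10 mitotic genes from the MOSE-E mean was -1.03, -0.59 and -2.87 on the 3 MOSE-L arrays. That of 7 proliferation markers (Ccna2, Ccnb2, Cdk1, Mcm2, Mki67, Pcna and Top2a) was -1.03, -0.38 and -2.59, and all 7 were lowest in MOSE-L on replicate 3. Ccna2, the cyclin of S phase and G2, read 1783, 2099 and 198 there and 4727, 4481 and 4697 in MOSE-E. Mki67, the antigen of cycling cells, and Top2a, the topoisomerase of mitotic chromosomes, also fell, by 2.12 and 1.60 on the log2 scale. Of the 7 markers 4 fell, with a list median of -1.08, where 7.49% of all genes were called lower. With MOSE-L replicate 3 left out 2 fell, Ccna2 (-1.24) and Mki67 (-1.33), against 6.14% of all genes, with a list median of -0.67. Top2a stood at -0.87 and was not called. In that fit 6 of the 7 changes were negative, with Pcna at -0.06 and Ccnb2 at 0.06. Per array the 7 signals summed to 43649 to 48532 in MOSE-E, to 55683 to 64745 at the intermediate stage, and to 30093, 37286 and 10019.7 in MOSE-L. The paper refers to an earlier report that MOSE-L cells had a raised growth rate. No growth measure of these cultures was used here. The part of proliferation and of the Actb ratio of MOSE-L replicate 3 in the kinesin values was not tested.

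**Figure D2:**
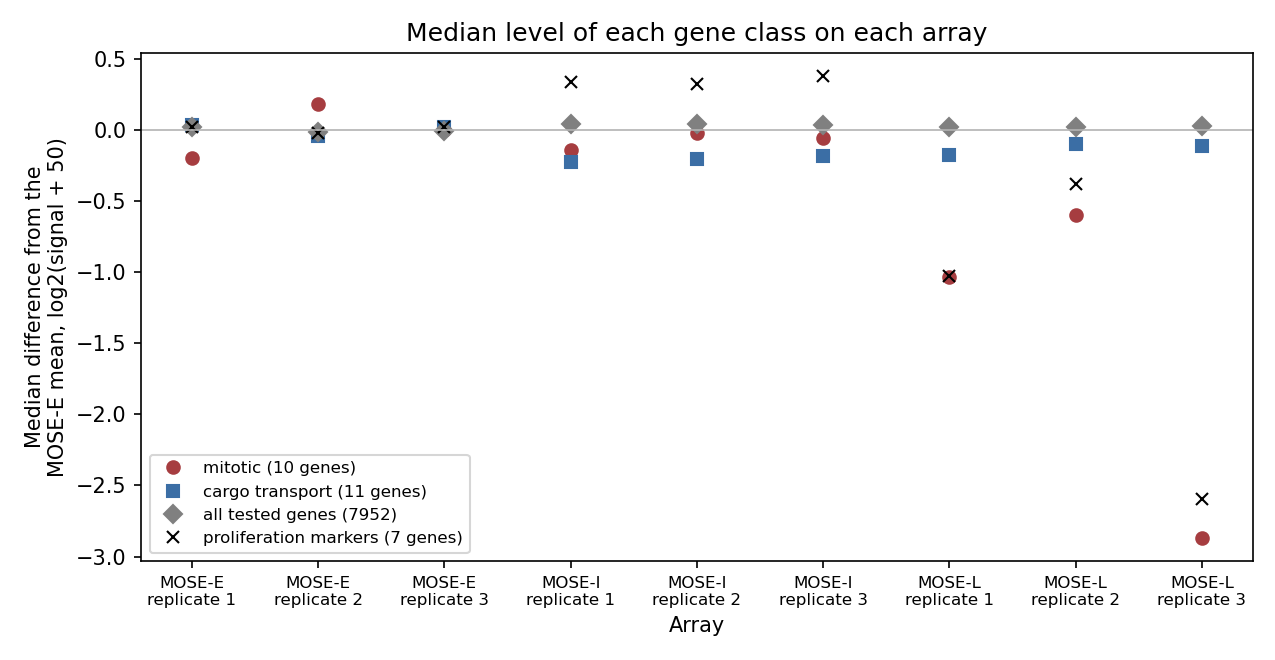
Median difference of each class from its MOSE-E mean, in log2 of the signal plus 50, on each of the 9 arrays, for mitotic kinesins (circles), cargo transport genes (squares), all tested genes (diamonds) and proliferation markers (crosses). The mitotic kinesins stand at -1.03, -0.59 and -2.87 on the MOSE-L arrays, near the proliferation markers. The median of the cargo transport genes, which moved in both directions, stays between -0.22 and 0.04 on all arrays.

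At the intermediate stage no kinesin gene was called by its representative probe set. Other probe sets of Kif1b and Kif5b were called lower, 3 of 44 kinesin probe sets against 3.76% of all. Of 24 tested genes 0 were called in MOSE-I against MOSE-E, where 5.9% of all tested genes were called, with 7 at an unadjusted p under 0.05 and 2 at an adjusted p of at most 0.05 in limma. Among the mitotic kinesins none had an unadjusted p under 0.05, and the median change was -0.12, from -0.44 for Kif2c and Kif4 to 0.28 for Kif20a. The medians of the 7 proliferation markers on the MOSE-I arrays were 0.32 to 0.38, with 4 genes above and 3 below MOSE-E, among them Mki67 at -1.14, and 0 called. Between MOSE-I and MOSE-L, Kif20a (-2.25), Kif23 (-1.75), Kif2c (-1.59), Kif18a (-1.31) and Kif18b (-1.13) fell, 5 of 10, where 6.04% of all tested genes were called lower. MOSE-L lay wholly below MOSE-I in 8 of the 10, against 23.5% of all genes. Without MOSE-L replicate 3 the count was 2 of 10 (Kif18b at -1.05 and Kif20a at -1.16), against 3.87% of all genes in that fit. Kif23 (-0.93), Kif2c (-0.87) and Kif18a (-0.83) were not called there. The median change then went from -1.45 to -0.78. Leaving out MOSE-I replicate 1, 2 or 3 gave 2, 1 and 1 of 10, leaving out MOSE-E replicate 3 gave 3, and leaving out MOSE-L replicate 2 gave 8.

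Cargo transport genes showed no common direction. Between MOSE-L and MOSE-E the median of 11 tested genes was -0.15, with 6 negative and 5 positive changes, and Klc4 rose while Kif1b fell. Klc4, Kif3a and Kif3b passed the filter only through later arrays and Kif13a only through MOSE-E, which favours the sign each showed. In the same comparison 8.11% of all genes were called higher and 7.49% lower. MOSE-L lay above MOSE-E without overlap in 3 of the 11, against 23.1% of all genes, and below in 5, against 21.7%. The groups were thus separate in 8 of 11 cargo transport genes, in both directions, and in 8 of 10 mitotic genes, all downward, against 44.8% of all genes in either direction.

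The 2 tested kinesin light chains, subunits that bind cargo to kinesin-1, went opposite ways. Klc4 read 275, 199 and 164 in MOSE-E, 184, 344 and 285 in MOSE-I, and 652, 745 and 579 in MOSE-L. All MOSE-L arrays were above all others. The probe set passed the filter only through MOSE-L, which favours a rise. The mean went from 212 ± 56.7 to 659 ± 83.3 (SD, n = 3 each), 3.10-fold higher, a log2 change of 1.45 ± 0.27 (limma adjusted p = 0.00364), and from MOSE-I the rise was 1.17 (limma adjusted p = 0.0124), where 7.38% of all genes were called higher. Klc1 read 862, 917 and 939 in MOSE-E, 708, 648 and 566 in MOSE-I, and 393, 554 and 477 in MOSE-L. Each stage was below the last with no overlap. The change of this probe set between MOSE-L and MOSE-E was -0.88 ± 0.18 (limma adjusted p = 0.0059), short of the fold threshold, while the other 2 Klc1 probe sets were called lower at -1.23 and -1.25. A second Klc4 probe set, under the filter, read 98.6, 36.8 and 163.5 in MOSE-E and 264, 164.2 and 211 in MOSE-I. In MOSE-L it read 386, 203 and 212, above MOSE-E but overlapping MOSE-I. Klc3 stayed at or under 191. Without MOSE-I replicate 1 the rise of Klc4 from MOSE-I was not called. With MOSE-L replicate 3 left out, the values against MOSE-E were 1.53 for Klc4 and -0.89 for Klc1.

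Kif5b, the kinesin-1 heavy chain of most tissues and the partner of the light chains, was lowest at the intermediate stage. Its representative probe set read 4392, 4021 and 4293 in MOSE-E, 2745, 2723 and 2691 in MOSE-I, and 3742, 3748 and 3914 in MOSE-L. Arrays agreed closely within each stage and no stages overlapped. The change was -0.63 ± 0.15 in MOSE-I against MOSE-E (limma adjusted p = 0.0317) and 0.48 ± 0.15 in MOSE-L against MOSE-I (adjusted p = 0.0433), both under the fold threshold, and -0.15 ± 0.15 in MOSE-L against MOSE-E. All 5 Kif5b probe sets were below MOSE-E on every MOSE-I array, with changes from -0.39 to -1.52. The probe set with the largest difference read 3638, 2787 and 3042 in MOSE-E, 869, 1236 and 1100.1 in MOSE-I, and 2480.0, 1864 and 2542 in MOSE-L. It was called lower in MOSE-I and higher in MOSE-L against MOSE-I (1.07). The neuronal heavy chains Kif5a and Kif5c did not exceed 218 and 173.

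By their representative probe sets, the kinesin-3 motors Kif1b and Kif1c were lower from the intermediate stage on, as was Kif13a, given further below. Kif1b, which carries mitochondria and vesicle precursors, read 1005, 1312 and 1180.2 in MOSE-E, 880.3, 599 and 811 in MOSE-I, and 618, 613 and 439 in MOSE-L. Both later stages lay below MOSE-E. The change between MOSE-L and MOSE-E was -1.01 ± 0.21 (limma adjusted p = 0.00617), at the fold threshold, and -0.86 and not called without MOSE-L replicate 3. It was likewise not called without MOSE-E replicate 2 or 3. The 5 Kif1b probe sets disagreed in MOSE-L, from -1.40 to -0.17 against MOSE-E. Of these 2 were called and 3 lay wholly below MOSE-E, while the rest overlapped it. In MOSE-I all 5 lay below all MOSE-E arrays (-0.59 to -1.02) and 2 were called lower. With the Kif5b probe set these made 3 of 44 kinesin probe sets called lower in MOSE-I, against 3.76% of all probe sets. Kif1c, a motor of vesicles and cell adhesions, read 1788, 1827 and 2014 in MOSE-E, 1212, 993 and 745 in MOSE-I, and 1094, 1317 and 807 in MOSE-L. The later stages overlapped each other below MOSE-E. Its changes from MOSE-E were -0.92 in MOSE-I (limma adjusted p = 0.0307) and -0.80 in MOSE-L (adjusted p = 0.0247), neither past the fold threshold.

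**Figure D3:**
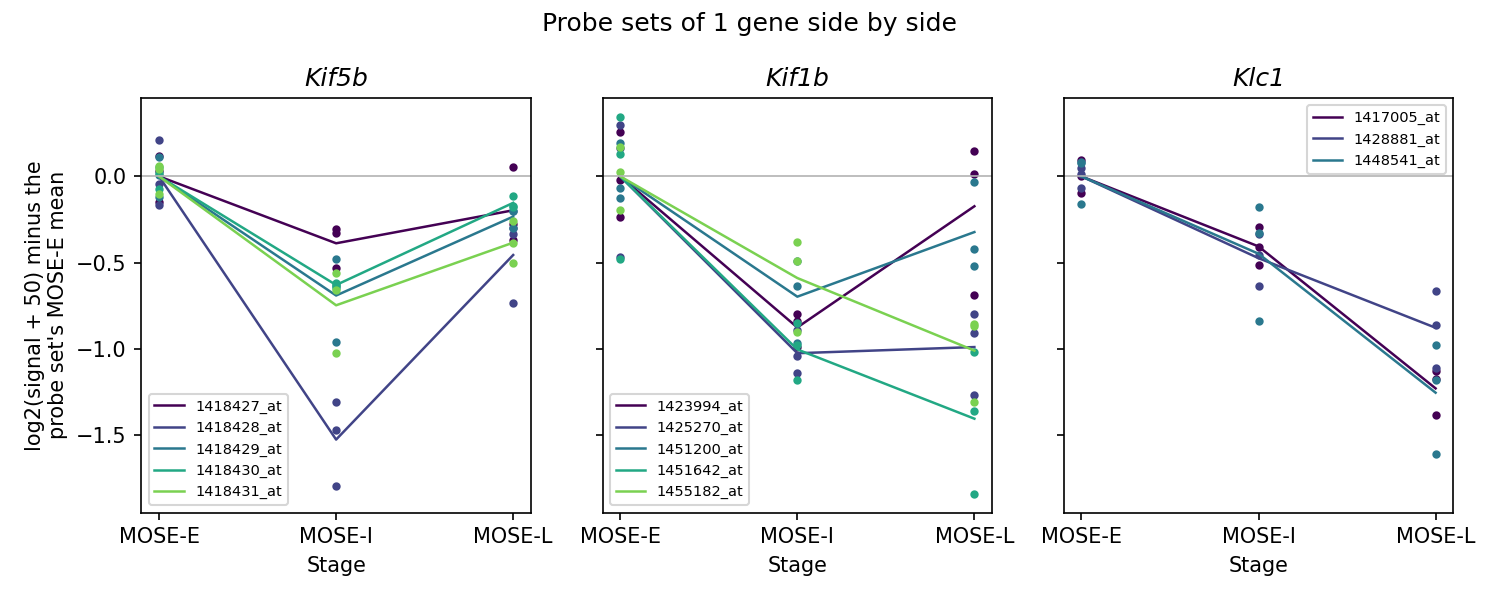
Tested probe sets of Kif5b (5), Kif1b (5) and Klc1 (3) at the 3 stages, as log2 of the signal plus 50 minus the MOSE-E mean of the same probe set, with points for arrays and lines through stage means. All Kif5b probe sets dip in MOSE-I (-0.39 to -1.52), Kif1b probe sets part in MOSE-L (-1.40 to -0.17), and Klc1 probe sets step down at each stage.

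Kifc3, a minus-end-directed motor of epithelial cells, read 1137, 1017 and 1328 in MOSE-E, 1040.0, 1007 and 1011 in MOSE-I, and 822, 1078 and 593 in MOSE-L. The stages overlapped, with a MOSE-L change of -0.49 ± 0.21 (limma adjusted p = 0.112). The 3 kinesin-2 genes Kif3a, Kif3b and Kif3c, of the motor that supplies cilia, had positive MOSE-L changes of 0.31 to 0.58 and MOSE-I changes of 0.07 to 0.52, none called. The remaining kinesin-3 genes are motors of endosomes. Kif13a stood at -0.83 and Kif16b at 0.88 in MOSE-L against MOSE-E (limma adjusted p = 0.00966 and 0.0259), under the fold threshold. Kif13a read 591, 618 and 575 in MOSE-E, 340, 416 and 417 in MOSE-I, and 296, 346 and 301 in MOSE-L. Its MOSE-I change was -0.55 and not called, and its probe set passed the filter only through MOSE-E. Kif16b, singled out after its values were seen, read 551, 385 and 510.2 in MOSE-E and 1013, 1031 and 738 in MOSE-L, without overlap. It was called higher, at 1.02, when MOSE-L replicate 3 was left out. Its probe set, like that of Kifc1, can also read near-identical transcripts.

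**Figure D4:**
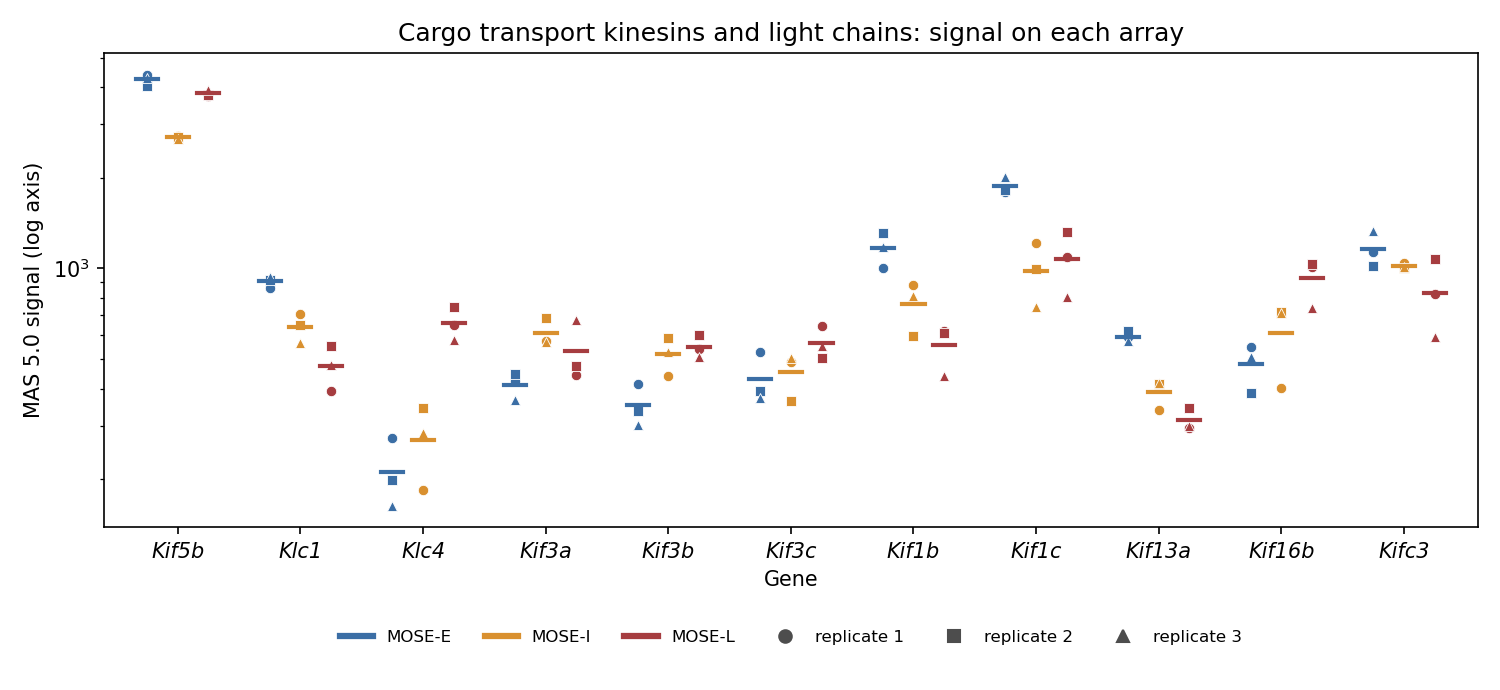
MAS 5.0 signal (log axis) of the 11 tested cargo transport genes on each of the 9 arrays, with colour for the stage, marker shape for the replicate and a bar for the mean of 3 arrays. Klc4 is highest in MOSE-L (579 to 745), Kif5b is lowest in MOSE-I (2691 to 2745), and MOSE-L replicate 3 does not stand apart as it does for mitotic kinesins.

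Side by side, the mitotic and cargo transport classes differed in size, direction and spread of the MOSE-L change. The medians were -1.49 and -0.15 against MOSE-E and -1.45 and 0.08 against MOSE-I, with 0.03 and -0.02 over all tested genes. With MOSE-L replicate 3 left out they were -0.77 and -0.17 against MOSE-E. Replicate 3 was the lowest of the 3 MOSE-L arrays for 10 of 10 mitotic and 6 of 11 cargo transport genes, against 38% of all genes, and the lowest of all 9 for 10 and 2. Over all 24 tested kinesin genes, 1 was called higher and 6 lower in MOSE-L against each of the other stages, where 8.11% and 7.49% of all genes were called higher and lower against MOSE-E and 7.38% and 6.04% against MOSE-I. The class difference itself has no p-value here, since members were grouped with their results known.

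**Figure D5:**
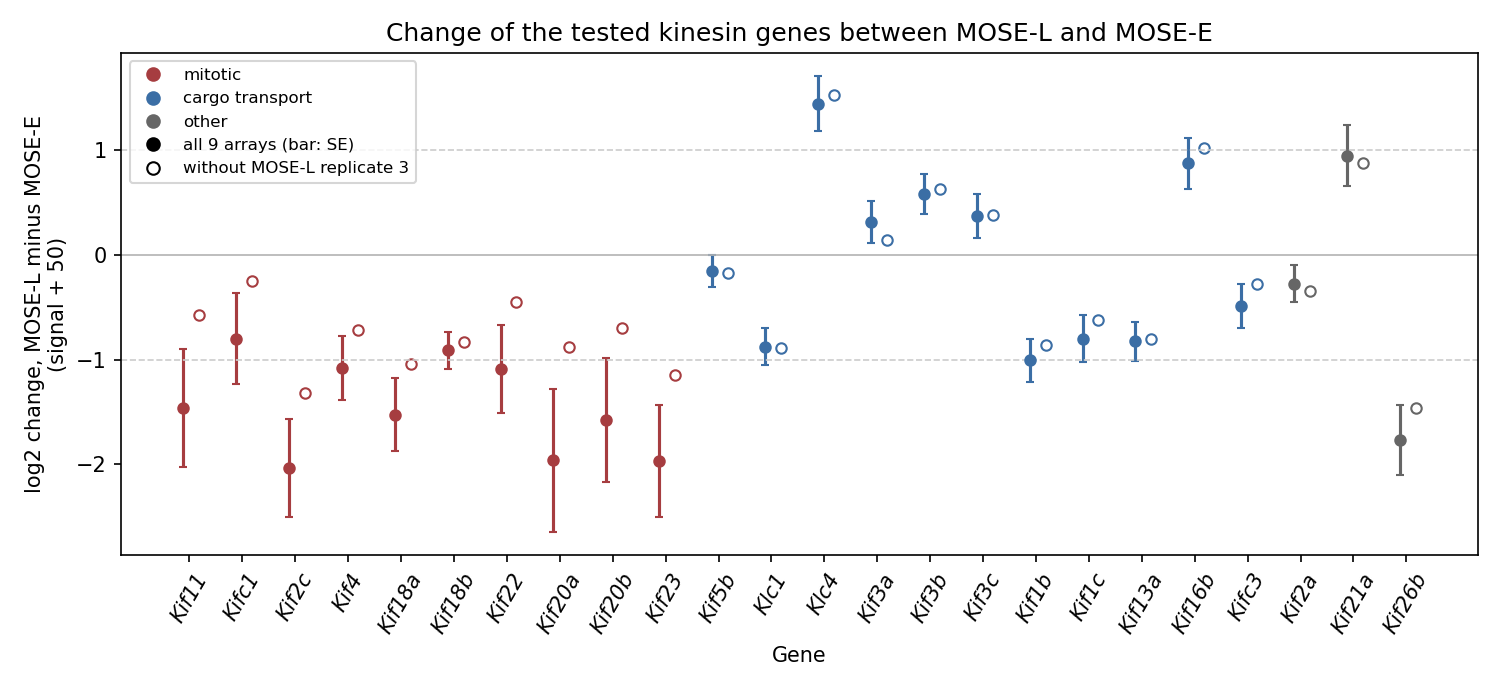
Log2 change between MOSE-L and MOSE-E of the 24 tested genes, with the SE, in all 9 arrays (filled) and without MOSE-L replicate 3 (open). Dashed lines mark the fold threshold at -1 and 1. All 10 mitotic genes lie below 0 and move toward 0 when that array is left out, and cargo transport genes lie on both sides.

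Among the 3 tested genes of neither class, Kif26b fell. Kif26b, a kinesin without motor activity that is known from kidney development and cell adhesion, read 589, 858 and 1013 in MOSE-E, 509, 1056 and 974 in MOSE-I, and 261, 257 and 112 in MOSE-L. MOSE-L lay far below overlapping earlier stages, 3.90-fold under MOSE-E, with changes of -1.77 ± 0.34 from MOSE-E (limma adjusted p = 0.00436) and -1.78 from MOSE-I. Without MOSE-L replicate 3 the first was -1.46 and still called. Its start-site window holds both elements shown above. Kif21a, which slows microtubule growth at the cell cortex, read 223, 344 and 191 in MOSE-E and 350.2, 689 and 582 in MOSE-L. These groups were separate by a narrow gap, with a change of 0.95 ± 0.29 (limma adjusted p = 0.035) under the fold threshold. The Kif21a probe set passed the filter only through MOSE-L, which favours a rise. Kif2a, a relative of Kif2c that takes microtubule ends apart at spindle poles and in neurons, had changes of -0.27 in MOSE-L and 0.20 in MOSE-I. Its 3 tested probe sets lay between -0.27 and -0.21 in MOSE-L against MOSE-E. It read 858, 975 and 1062 in MOSE-L, with replicate 3 the highest, unlike the mitotic genes. Although it acts at spindle poles, Kif2a was placed outside the mitotic class, whose counts do not include it.

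Genes that work with the motors were read from lists. Of 14 partners of mitotic kinesins, 12 fell in MOSE-L against MOSE-E, with a median change of -1.58, and 0 were called in MOSE-I. Without MOSE-L replicate 3 there were 5 of 14, against 6.14% of all genes called lower in that fit, with 14 negative changes and a median of -0.89. Over all tested genes 7.49% were called lower and 8.11% higher in this comparison. One of the 14, Cenpe, is itself a kinesin motor of the kinetochore, outside the naming rule. Birc5, a subunit of the chromosomal passenger complex, read 7619, 6080.0 and 6524 in MOSE-E and 2775, 2456 and 242 in MOSE-L, a change of -2.41. Cdca8, of the same complex, and Plk1, a mitotic kinase that docks on the midzone, fell by 2.00 and 1.87 on the log2 scale. All 3 remained called without MOSE-L replicate 3, at -1.35 for Birc5, -1.47 for Cdca8 and -1.05 for Plk1. MOSE-L replicate 3 was the lowest MOSE-L array for 13 of these 14. Of 8 tested kinesin cargo adaptors, 1 fell: Fez2, of a family that links kinesin-1 to vesicles, went from 3001 ± 679 to 1142 ± 355 (SD, n = 3 each), a change of -1.37, with a list median of 0.28. Without MOSE-L replicate 3 these were -1.60 and 0.31. Of 12 tested dynein and dynactin genes, the minus-end counterpart of the cargo kinesins, 1 rose, a share near that of all genes, with a list median of 0.10. This was Dync1i1, an intermediate chain, at 114, 72.1 and 97.5 in MOSE-E and 684, 793 and 248 in MOSE-L. Its change was 1.99 (limma adjusted p = 0.00922), and 2.46 without MOSE-L replicate 3, where the list median was 0.11. Its probe set passed the filter only through MOSE-L, which favours a rise.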

How the data were processed

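The authors hybridised RNA of 9 cultures to Affymetrix whole-genome mouse arrays and deposited 1 intensity per probe set and array, a linear MAS 5.0 signal scaled to a trimmed mean of 500. The array number, 3 per stage, limits the precision. From these, log2(signal + 50) was taken (32.4% of signals lie under 50), 64 controls were left out and the 13845 probe sets over 500 on at least 1 array were fitted in limma 3.58.1 under R 4.3.3 with 1 mean per stage and a variance prior that follows the mean. Members, classes, gene lists and motifs were chosen with earlier results of these data known. Named were all called members, up to 4 further genes a class with the highest mean signal, and up to 3 called genes of each context list. A t-test of each probe set on log2(signal + 50), with a fold over 2 in mean signals, was an alternative (the log2 t-test). The methods name a t-test without stating a log scale, so this does not repeat the authors' test. Further alternatives were other added values, normalizations, filters, probe sets, a replicate block and leaving out each array. Promoter windows came from RefSeq (GRCm38.p6). Detection calls were not used here.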

Additional observations from a re-analysis of the deposited data

How the results depend on the processing

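No change of a called kinesin gene turned its sign under 22 alternatives, and 60 of 303 values of the 14 called changes were no longer called. Klc4 in MOSE-L against MOSE-E was called in 21 of 21, Kif26b in 21 of 22, Kif18a in 20 of 21 and Kif2c in 20 of 22. Kinesin genes called in MOSE-L against MOSE-E (7) numbered 14 with no minimum fold and 1 with the log2 t-test adjusted. In MOSE-I against MOSE-E (0) they numbered 2 with no minimum fold and 2 with the probe set of highest variance. In MOSE-L against MOSE-I (7) there were 4 with no filter, 4 with a signal over 1000 and 3 with only the groups compared. The log2 t-test gave 3 unadjusted and 0 adjusted. Mitotic genes called lower in MOSE-L against MOSE-E (4) were 2 with only the groups compared, 1 with the log2 t-test and 0 with it adjusted. Against MOSE-I (5) they were 2 with no filter, 3 over 1000, 1 with only the groups compared, and 1 and 0 with the log2 t-test. The cargo transport median against MOSE-E went from -0.15 to 0.22 with no filter, -0.49 over 1000 and -0.46 with the probe set of highest variance, in MOSE-I from -0.17 to -0.59 over 1000, and in MOSE-L against MOSE-I from 0.08 to -0.028 after quantile normalization. Leaving out each array gave, in the order late to early, intermediate to early and late to intermediate, 4 to 12, 0 to 1 and 3 to 10 kinesin genes called, 2 to 8, 0 and 1 to 8 mitotic genes called lower, mitotic medians of -1.90 to -0.77, -0.20 to 0.03 and -1.87 to -0.78, and cargo transport medians of -0.19 to -0.13, -0.26 to -0.074 and -0.057 to 0.14. Without MOSE-E replicate 3 there were 4 kinesin genes called in MOSE-L against MOSE-E, without MOSE-L replicate 1 there were 12 and without MOSE-L replicate 2 there were 11. Fewer samples enter these fits and the group-only fits, and the cause of the other shifts was not tested. The context lists without MOSE-L replicate 3 were an alternative chosen after seeing the data. Same-numbered arrays of 2 stages correlated in their deviations at -0.11 to 0.41 (9 pairs), and differently numbered arrays at -0.49 to 0.24 (18 pairs). The highest values, 0.41 and 0.26, joined same-numbered MOSE-E and MOSE-L arrays. The ranges overlapped, and the numbers were not taken as pairs in the main fit. With the replicate number as a block 7, 0 and 8 kinesin genes were called.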
